A study of Mus musculus with 13 samples.

Results

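The 10 genes described here encode factors that take messenger RNA apart in the cytoplasm: the decapping enzyme gene Dcp2, its activator genes Dcp1a and Dcp1b, the decapping enhancer genes Edc3 and Edc4, the exonuclease gene Xrn1, the deadenylase genes Pan2 and Pan3, and Zfp36l1 and Zfp36l2, whose products bind AU-rich elements. They were chosen by symbol for these known roles, at a time when earlier results of these data were known. All 10 were present among the 18939 genes of the count tables and among the 49686 entries of the FPKM table. In most cells an mRNA first loses its poly(A) tail, which PAN2-PAN3 and then the CCR4-NOT complex shorten, after which DCP2 removes the 5′ cap and XRN1 digests the body from its 5′ end. ZFP36 family proteins bring the deadenylases to mRNAs with AU-rich 3′UTRs. In the growing oocyte mRNAs are stored for long periods, and during meiotic maturation many of them are degraded while others, Dcp1a and Dcp2 among those known, gain a longer tail and are translated.

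Each of the 13 libraries was made from a single mouse oocyte. Germinal vesicle (GV) oocytes, which are arrested in the prophase of meiosis I, came from C57BL/6 females of 3 to 4 weeks at 48 h after PMSG, and all carried injected mRNA for FBL-GFP, a fluorescent form of the nucleolar protein fibrillarin. After 6 h in Cilostamide, an inhibitor of phosphodiesterase 3 that holds oocytes at the GV stage, they were classed by nucleolar pattern as NSN (non-surrounded nucleolus) or SN (surrounded nucleolus), and some were matured to metaphase II (MII). The groups were 3 GV SN, 3 GV NSN, 4 SN-MII and 3 NSN-MII oocytes, where SN-MII and NSN-MII name the class of the oocyte before maturation. No group without FBL-GFP was sequenced here, and the labels do not say which oocytes shared a female, so p-values measure the spread between these oocytes.

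Total counts per library lay between 7140416 and 8846287. The number of genes with a count was between 11579 in NSN-MII replicate 3 and 13333 in GV NSN replicate 1. All 10 oocyte markers examined (Zp1, Zp2, Zp3, Gdf9, Bmp15, Mos, Ooep, Nlrp5, Padi6 and Dppa3) had counts, and their sum was between 16547 and 32979 CPM in every library. CPM are counts brought to a common library size with the TMM factor of each library. The summed CPM of 12 cumulus and granulosa cell markers was between 44.5 and 81.3 in GV oocytes and between 91.6 and 173 in MII oocytes. Most of this sum was Cyp19a1, which had between 37.8 and 67.3 CPM in GV and between 77.1 and 158 CPM in MII oocytes. The other 11 markers summed to between 5.57 and 14.4 CPM at GV and between 5.32 and 18.5 CPM at MII. Of the 5 markers with enough counts to be tested between the stages, Kitl and Cyp19a1 were called higher at MII and Cyp11a1 lower. Of all 12 markers Foxl2 was at 0 in all 13 libraries and Fshr was at 0 in all MII libraries. The part of cumulus cell RNA in the changes between stages was not tested. All values are relative to the other mRNAs of the same oocyte. Because reverse transcription in this protocol starts on the poly(A) tail, an mRNA that became more abundant and an mRNA whose tail became longer cannot be told apart.

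The ends of the 3′UTRs are shown first because tail length in oocytes is set in part by short sequences near the cleavage site. Cytoplasmic polyadenylation elements, which in DNA letters read TTTTAT or TTTTAAT, are bound by CPEB1, and AATAAA is the polyadenylation signal. The last 150 bases of the principal annotated transcript (GENCODE M21, GRCm38, which is mm10) were searched on the transcript strand. Dcp1a held 2 copies of TTTTAT and 1 of TTTTAAT, Pan2 held 3 of TTTTAT, Xrn1 held 1 of TTTTAT and Pan3 held 1 of TTTTAAT. Dcp2, Dcp1b, Edc3, Edc4, Zfp36l1 and Zfp36l2 held neither in this window. For comparison, 26.1% of the 10186 tested genes with a 3′UTR of at least 150 bases held either motif. The copy nearest the transcript end is shown for the 4 genes, in 30 bases of genomic sequence on the plus strand with the motif in capitals:
Dcp1a: caaatatatttTTTTAATaaaatttcaaaa
Xrn1: agattaaatattTTTTATttttaagttacc
Pan2: aaataaaagtatTTTTATctcattagaaaa
Pan3: atagcagtattTTTTAATaaagaattgcag
These stretches lie in the 3′UTR exons at chr14:30527010-30527039 (Dcp1a), chr9:96052904-96052933 (Xrn1), chr10:128321324-128321353 (Pan2) and chr5:147548460-147548489 (Pan3). In Dcp1a and Pan3 the element overlaps the polyadenylation signal, and in Pan2 the element ends 12 bases from the transcript end. In Xrn1 it ends 106 bases from the end of the principal transcript, whose 3′UTR is 218 bases long. The gene extends beyond this transcript. TATTTAT, a core AU-rich element, and TGTANATA, the Pumilio motif, occurred in the window of none of the 10 genes, against 6.44% and 6.78% of all windows.

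The 10 genes covered a very wide range of levels, compared here per length as FPKM. At the GV stage Dcp1a was highest at 319 FPKM ± 99.8 (SD, n = 6), which placed it at rank 302 of 18939 genes. Below it came Edc4 at 79.0 ± 25.2, Pan2 at 42.2 ± 15.2, Dcp2 at 40.8 ± 10.1, Pan3 at 24.8 ± 5.96 and Xrn1 at 5.27 ± 2.67 FPKM. Dcp1b had 2.54 ± 1.27 FPKM, and Edc3, Zfp36l2 and Zfp36l1 were all below 1 FPKM in every library. Of neighbours in this order, Pan2 and Dcp2 differed by less than the SD of either gene, and the ranges of Edc4 and Pan2, of Dcp2 and Pan3, and of Xrn1 and Dcp1b overlapped. At the MII stage Dcp1a had 1077 ± 120 FPKM (n = 7) and stood at rank 57. Pan2 followed at 115 ± 11.6, Edc4 at 100.2 ± 18.0, Pan3 at 82.6 ± 13.2 and Dcp2 at 63.0 ± 16.7 FPKM, and neighbours among these 4 overlapped in range. Xrn1 had 10.8 ± 2.38 FPKM and Dcp1b 0.849 ± 0.917 FPKM. DCP1 activator mRNA in these oocytes was thus almost all Dcp1a.

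**Figure D1:**
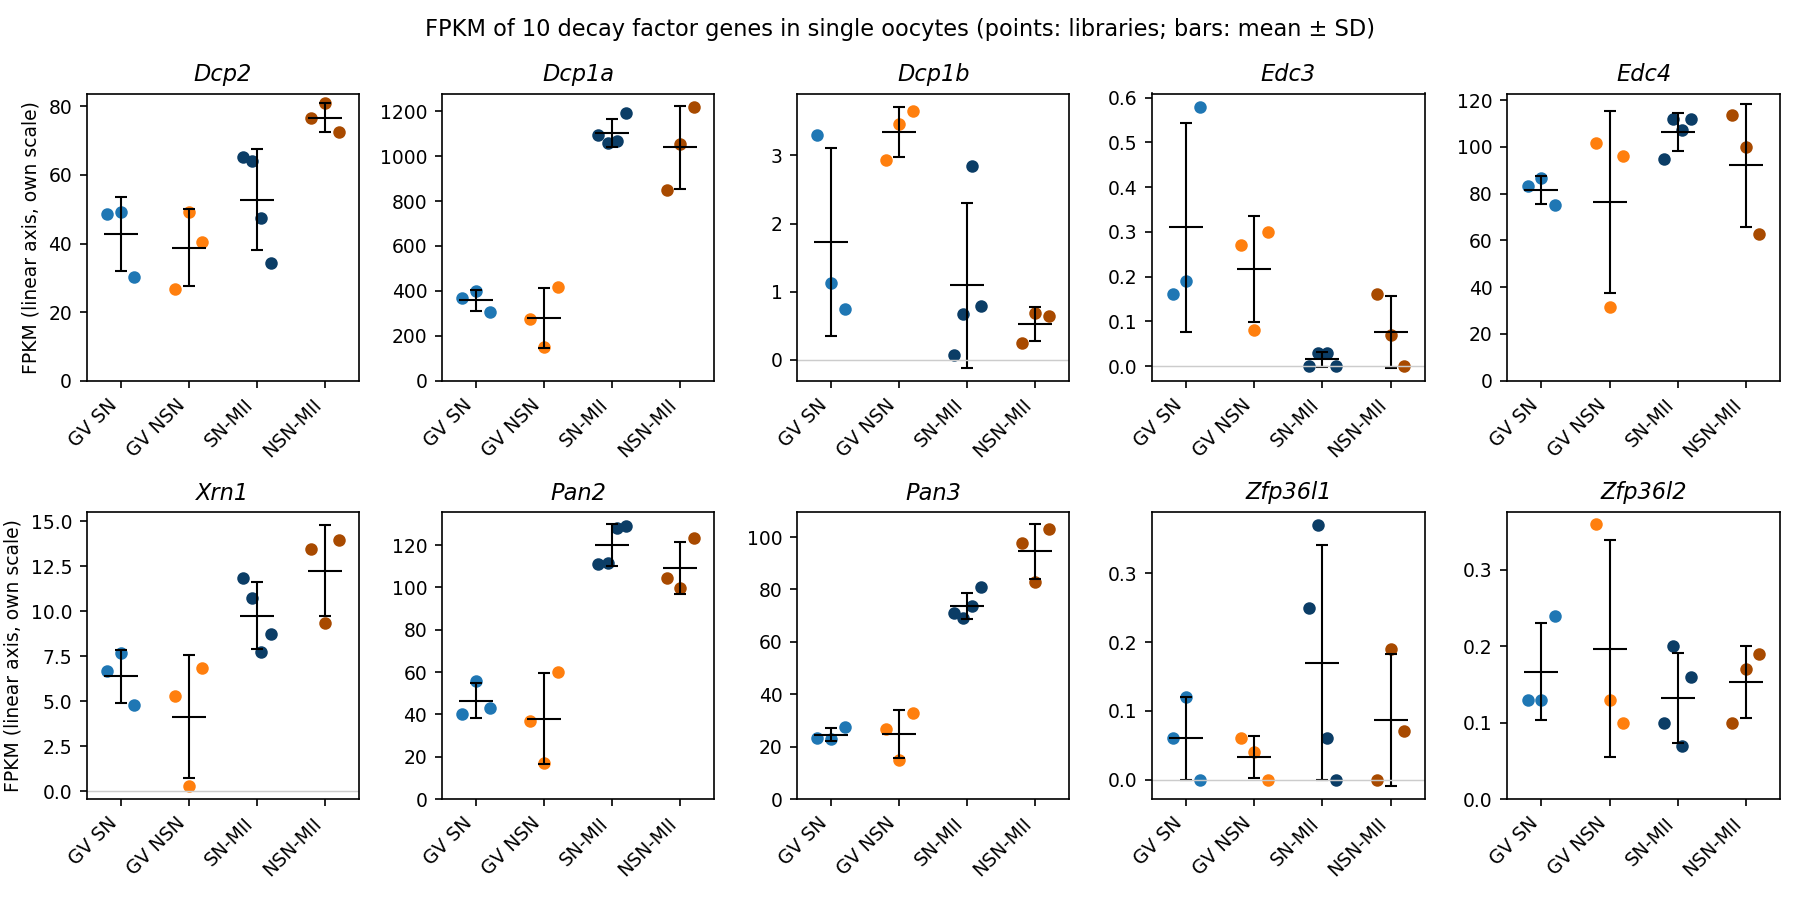
FPKM of each of the 10 genes (vertical axis, linear, a scale of its own per gene) in the 4 groups (horizontal axis). Points are single oocyte libraries and black bars the mean ± SD. Dcp1a, Pan2 and Pan3 lie higher in all 7 MII libraries than in all 6 GV libraries, with Dcp1a between 850 and 1219 FPKM at MII and between 148 and 417 at GV. Zfp36l1, Zfp36l2 and Edc3 stay below 1 FPKM in every library.

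The first comparison asked how the mRNAs of these genes differ between GV oocytes and oocytes matured to MII. These were different oocytes, and the MII groups hold only oocytes that reached MII. The paper reports a lower rate of polar body extrusion for NSN than for SN oocytes. The part of this selection in the differences was not tested, and the labels do not say whether both stages were made in the same batch. Dcp2, Dcp1a, Xrn1, Pan2 and Pan3 rose and Edc3 fell. The rises were between 1.97-fold for Dcp2 and 4.11-fold for Dcp1a. Dcp1b and Edc4 did not pass the test, and Zfp36l1 and Zfp36l2 had too few counts to be tested. Thus 6 of the 8 genes tested were called, at an adjusted p under 0.05 in edgeR's quasi-likelihood test fitted over all genes. Most of the transcriptome differed between the stages: 68.6% of all 11375 genes tested were called, 31.7% as higher and 36.9% as lower at MII. The number called among the 8 is therefore near the background, and the 5 rises stand beside a background of 31.7%. In 4 genes, Dcp1a, Xrn1, Pan2 and Pan3, every MII library lay above every GV library in CPM, as in 20.9% of all genes, and 47.4% of all genes did not overlap in either direction. The median log2 fold change of the 8 tested genes was 1.204, against −0.10 over all genes tested. Edc3 passed the filter on low counts through its GV libraries, so that at its level only a fall could be seen.

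Dcp2 encodes the catalytic subunit of the decapping complex. Its CPM was 124, 136 and 52.6 in GV SN oocytes and 43.3, 67.2 and 124 in GV NSN oocytes. At MII it was 183, 203, 153 and 107 in SN-MII and 205, 207 and 175 in NSN-MII oocytes. SN-MII replicate 4 lay within the GV range, so that the stages overlapped, and the other 6 MII libraries lay above all GV libraries. The rise was 0.98 ± 0.26 on the log2 scale (SE, adjusted p = 0.00270). On the FPKM scale it was smaller, from 40.8 ± 10.1 to 63.0 ± 16.7, and limma on log2(FPKM + 1) gave 0.65 ± 0.19 (adjusted p = 0.00692). The number of counts that make up 1 FPKM of Dcp2 varied 2.29-fold between libraries, a wider range than for 94.6% of the genes for which it could be read.

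Dcp1a (chr14:30479535-30527063, plus strand, 10 exons) encodes the main activator of DCP2. It had 1065, 1222 and 762 CPM in GV SN oocytes and 660, 353 and 1285 CPM in GV NSN oocytes. It had 3720, 3631, 3708 and 4359 CPM in SN-MII oocytes and 2677, 3142 and 4393 CPM in NSN-MII oocytes. Every MII library lay above every GV library, and the lowest MII value was 2677 CPM against a highest GV value of 1285. The rise was 2.04 ± 0.24 on the log2 scale (adjusted p = 1.32e-06), and 1.11% of all tested genes had a higher log2 fold change. The gene overlaps Cacna1d on the opposite strand, and the libraries were not stated to keep strand.

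Dcp1b (chr6:119175253-119221616, plus strand, 9 exons), the other DCP1 gene, was low and uneven. It had 2.68, 1.30 and 0.479 CPM in GV SN and 2.52, 5.25 and 3.54 CPM in GV NSN oocytes, or between 4 and 42 counts per library. At MII it had 0.133, 1.28, 5.78 and 1.77 CPM in SN-MII and 0.833, 1.24 and 1.01 CPM in NSN-MII oocytes. SN-MII replicate 3 alone held 44 of the 91 counts at MII and was the highest of all libraries, and the other 6 MII libraries fell within the GV range or below it. The difference between stages was −0.63 ± 0.64 in log2 counts and did not pass the test (adjusted p = 0.395). On the FPKM scale limma called Dcp1b lower at MII, by −0.98 ± 0.29 in log2(FPKM + 1) (adjusted p = 0.00672), so that its call rests on the scale used. It overlaps Cacna1c on the opposite strand.

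Edc3 and Edc4 encode enhancers of decapping, scaffolds that hold the decapping complex together. Edc3 (chr9:57708540-57752499, plus strand) was close to the limit of detection. It had 0.837, 1.18 and 3.33 CPM in GV SN and 1.23, 0.498 and 1.86 CPM in GV NSN oocytes. At MII it had 0, 0.139, 0.142 and 0 CPM in SN-MII and 0.905, 0.419 and 0 CPM in NSN-MII oocytes. The SN-MII libraries held at most 1.08 estimated counts each, and NSN-MII replicate 1 lay above the lowest GV libraries. Edc3 entered the test through its GV libraries, which favours a separation in this direction. The fall was −2.93 ± 0.82 in fitted log2 counts (adjusted p = 0.00432) and rests on 76 rounded counts over 6 GV libraries and 13 over 7 MII libraries, a ratio of 6.15-fold on the CPM scale with a 95% interval of 3.39 to 12.1 for counting error only. Scaled by library totals without TMM the ratio was 7.56-fold. Without NSN-MII replicate 1, which held most of the MII counts, the fitted log2 change was −3.53. In 10 of 13 libraries its estimated count was not whole, so that some of its reads were shared with other genes, and it overlaps Clk3 on the opposite strand.

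Edc4 (chr8:105880881-105894908, plus strand, 29 exons) was far more abundant. It had 388, 390 and 322 CPM in GV SN and 387, 148 and 453 CPM in GV NSN oocytes. At MII it had 462, 535, 536 and 600.1 CPM in SN-MII and 500.1, 459 and 347 CPM in NSN-MII oocytes. The SN-MII libraries lay above the GV SN libraries, as did those of 28.9% of all genes, while NSN-MII replicate 3 lay within the GV range. The log2 difference of 0.47 ± 0.20 missed the threshold (adjusted p = 0.05005), and the call turned with single libraries: it passed without GV NSN replicate 1, without GV NSN replicate 3 or without NSN-MII replicate 3 (adjusted p = 0.0447, 0.0121 and 0.0391). With library totals in place of TMM the difference was 0.18. Its estimated counts were not whole in any of the 13 libraries, and Nrn1l overlaps it on the same strand.

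Xrn1 (chr9:95954760-96057803, plus strand, 42 exons) encodes the exonuclease that degrades decapped mRNA. Its level was 27.3, 42.6 and 22.5 CPM in GV SN and 27.0, 1.75 and 36.0 CPM in GV NSN oocytes. It was 88.4, 60.5, 59.9 and 61.0 CPM in SN-MII and 77.8, 56.9 and 79.7 CPM in NSN-MII oocytes. All MII libraries exceeded all GV libraries, and GV NSN replicate 2, with 14 counts, stood far below the other 5 GV libraries. The rise was 1.43 ± 0.40 on the log2 scale (adjusted p = 0.00487). The number of counts per FPKM of Xrn1 varied 1.79-fold between libraries, and the stages did not overlap in FPKM either, with a highest GV value of 7.69 and a lowest MII value of 7.74. In FPKM 17.0% of all genes lay higher in every MII than in every GV library. Estimated counts of Xrn1 were not whole in 8 of 13 libraries. It overlaps 4 annotated genes, of which only C78334, on the opposite strand, is in the count tables.

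Pan2 and Pan3 encode the subunits of a deadenylase, PAN2 being the nuclease and PAN3 the partner that binds RNA and recruits PAN2. Pan2 (chr10:128303335-128321358, plus strand, 26 exons) had 194, 264 and 190 CPM in GV SN and 149, 83.8 and 285 CPM in GV NSN oocytes. It had 565, 556, 651 and 712 CPM in SN-MII and 481, 471 and 709 CPM in NSN-MII oocytes. The stages did not overlap, and the rise was 1.60 ± 0.23 on the log2 scale (adjusted p = 1.03e-05). Pan3 (chr5:147430161-147548502, plus strand, 19 exons) had 41.6, 45.7 and 45.4 CPM in GV SN and 35.6, 27.5 and 49.2 CPM in GV NSN oocytes. It had 140, 131, 135 and 178 CPM in SN-MII and 165, 155 and 202 CPM in NSN-MII oocytes. Here too every MII library exceeded every GV library, and Pan3 had the smallest relative spread of the 8 genes at the GV stage, with a coefficient of variation of 19.5%. Its rise of 1.97 ± 0.16 had the smallest adjusted p of the 8 genes (2.25e-08), and 1.35% of all tested genes had a higher log2 fold change. The processed pseudogene Gm42883 lies within Pan3, and its estimated counts were not whole in 7 of 13 libraries.

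Zfp36l1 and Zfp36l2, of which Zfp36l2 is known to be needed for oocyte maturation in mice, were barely detected. Zfp36l2 (chr17:84183931-84187947, minus strand) had between 3 and 11 counts in each GV library and between 2 and 6 in each MII library. The sums of 33 and 29 counts gave an MII to GV ratio of 0.835 on the CPM scale with a 95% counting interval of 0.489 to 1.42, so no difference was detectable at this depth. Zfp36l1 (chr12:80107754-80113013, minus strand) had 0 to 2 counts in the GV libraries and 0 to 6 in the MII libraries. The sums of 5 and 16 counts gave a ratio of 3.04 on the CPM scale with a counting interval of 1.06 to 10.6, and of 2.48 with an interval of 0.867 to 8.64 with library totals, so that whether the interval includes 1 depends on the scaling. Neither interval covers the spread between oocytes. A count of 0 in a single library allows up to 0.315 to 0.507 CPM, depending on the library. In the same libraries Zfp36, the founding member of the family, was among the 31.7% of all genes called higher at MII. It was low too, at 2.65 ± 1.14 CPM at GV and 7.67 ± 3.08 CPM at MII. In NSN oocytes alone its rise did not pass edgeR's test (adjusted p = 0.0655).

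Among the genes tested, the 4 that hold a TTTTAT or TTTTAAT element in the last 150 bases (Dcp1a, Xrn1, Pan2 and Pan3) all rose. Of the 4 without it in that window Dcp2 rose, Edc3 fell, and Dcp1b and Edc4 did not pass. The principal transcript of Dcp2 has a 3′UTR of 7240 bases, and the rest of it and other transcript ends were not searched. Edc3 had passed the filter through its GV libraries, Dcp1b was low, and Edc4 only just missed the threshold. Whether the element has a part in this split was not tested. Over the transcriptome 47.8% of genes with either element were called higher at MII and 28.7% of those without. Their median log2 fold changes were 0.63 and −0.26. The other motifs, all rich in A and T, gave shares of 37.3% with and 25.9% without AATAAA, 41.2% and 33.1% for TATTTAT, and 44.0% and 32.9% for TGTANATA. These shares describe the windows and carry no test, and the part of base composition in them was not tested.

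The maturation of SN and of NSN oocytes was then compared separately. In SN oocytes 4 of the 8 tested genes were called, Dcp1a (log2 fold change 1.92 ± 0.33, adjusted p = 0.000137), Pan2 (1.52 ± 0.32, adjusted p = 0.000661) and Pan3 (1.72 ± 0.23, adjusted p = 8.78e-06) as higher and Edc3 as lower. For Edc3 the SN-MII libraries held 2 counts in all and the GV SN libraries 45, a ratio of 27.6-fold on the CPM scale with a counting interval of 7.22 to 235. GV SN replicate 3 held 27.8 of these 45 counts. Edc3 passed the filter through its GV libraries, so that only a fall could be seen here too. In NSN oocytes 5 genes were called, all higher: Dcp2 (1.33 ± 0.37, adjusted p = 0.00635), Dcp1a (2.15 ± 0.35, adjusted p = 7.87e-05), Xrn1 (1.72 ± 0.59, adjusted p = 0.020), Pan2 (1.68 ± 0.33, adjusted p = 0.000431) and Pan3 (2.22 ± 0.24, adjusted p = 1.28e-06). The background was 56.3% of all genes in either class, with 25.1% higher and 31.2% lower in SN oocytes and 25.4% higher in NSN oocytes. The call for Xrn1 in NSN oocytes was lost with library totals (adjusted p = 0.0661), without NSN-MII replicate 1 (0.0578) or without NSN-MII replicate 3 (0.0503), and without GV NSN replicate 2 the count of genes called in SN oocytes rose from 4 to 6, Edc4 and Xrn1 being added.

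Whether the change from GV to MII differed between NSN and SN oocytes was tested as an interaction of class and stage. None of the 8 genes passed this test at an adjusted p under 0.05 in edgeR or in DESeq2, and none had an unadjusted p under 0.05, which 5.33% of all genes had. Over all 11375 genes 2 passed the adjusted test, or 0.0176%. The calls for Dcp2 and Xrn1 in NSN oocytes alone and for Edc3 in SN oocytes alone are therefore not shown to differ between the classes. The estimates with the widest errors were those of the low genes, 3.10 ± 1.61 for Edc3 and −2.45 ± 1.30 for Dcp1b, and those of the abundant genes were between −0.14 ± 0.41 for Edc4 and 0.69 ± 0.50 for Dcp2.

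**Figure D2:**
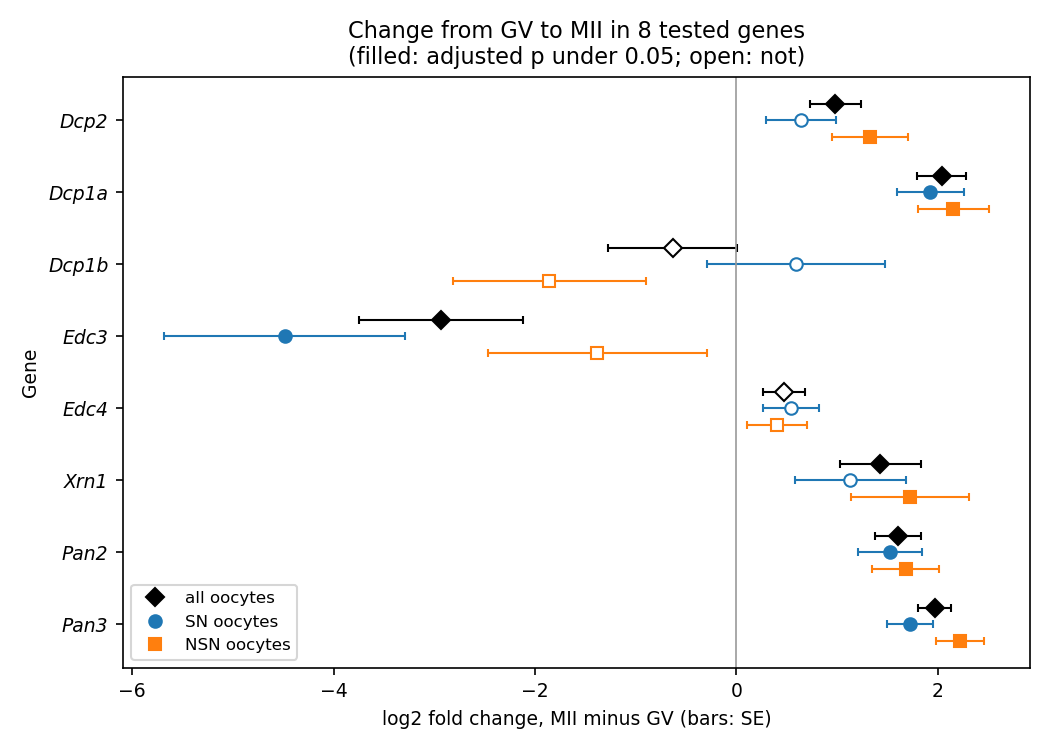
Log2 fold change from GV to MII (horizontal axis, MII minus GV) of the 8 tested genes in all oocytes, in SN oocytes and in NSN oocytes. Bars are standard errors of the edgeR fit and filled symbols have an adjusted p under 0.05. Dcp1a, Pan2 and Pan3 are filled in all 3 contrasts, with values between 1.52 and 2.22, and Edc3 is the only gene with filled symbols to the left of 0.

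Ratios between related genes within the same oocyte were taken per length, as log2 of (FPKM + 0.1). Library scaling enters them only through the added 0.1, which weighs most where a gene is near 0. Stages were compared by a two-sided exact permutation test over the 13 libraries, with p adjusted over the 4 ratios. The ratio of Dcp1a to Dcp1b was higher at MII by 3.57 log2 units (exact permutation p = 0.00117, adjusted p = 0.00233). It was between 5.38 and 8.495 at GV and between 8.502 and 12.7 at MII, so that the stages adjoined without overlapping. No share over all genes was taken for ratios. This ratio contains the rise of Dcp1a already given (log2 fold change 2.04), so it is not independent of it. At MII it also rests on between 1 and 44 counts of Dcp1b per library. The ratio of Edc4 to Edc3 was higher by 1.73 (exact permutation p = 0.000583, the smallest p that 7 against 6 libraries allow, adjusted p = 0.00233). This rests on the few reads of Edc3, which had between 0 and 0.16 FPKM at MII, so that the added 0.1 sets much of its size. Edc3 passed the count filter through its GV libraries, so this ratio gives its fall again and is no separate result. With a pseudocount of 1 the difference was 0.67, and in counts with a pseudocount of 0.5 it was 3.39, with an adjusted p of at most 0.0105 under either. For Dcp1a to Dcp1b the differences were between 2.77 and 3.57 under these settings and the one above.

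The ratio of Pan3 to Pan2 compares the mRNAs of the deadenylase subunits, whose proteins were not measured. It was −0.71 ± 0.37 (SD, n = 6) at GV and −0.49 ± 0.27 (n = 7) at MII, a difference of 0.22 that was within the spread between oocytes (exact permutation p = 0.248). The ratio of Zfp36l2 to Zfp36l1 differed by −0.69 (exact permutation p = 0.128, adjusted p = 0.171) and rests on counts of at most 11 per library. The stages overlapped widely for both ratios.

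**Figure D3:**
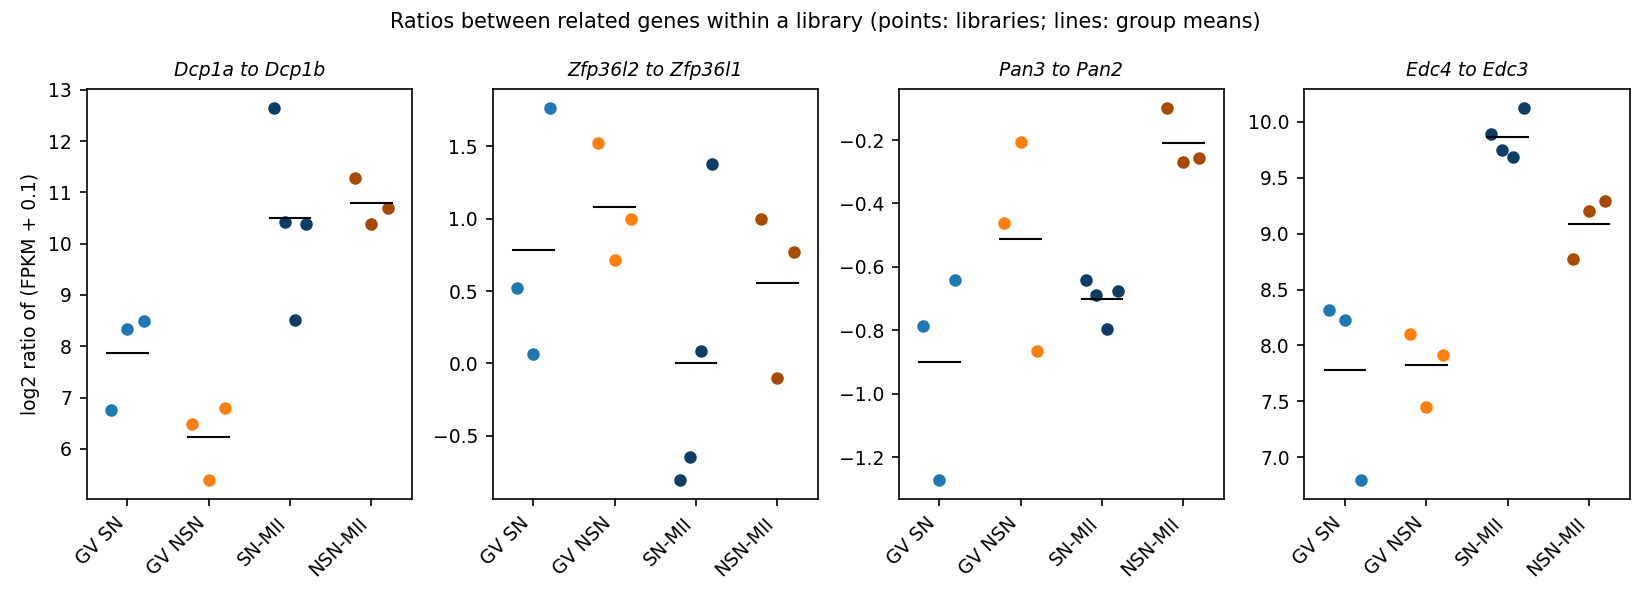
Log2 ratio of (FPKM + 0.1) between related genes (vertical axis, a scale of its own per panel) in each library by group. Points are libraries and lines group means. The ratio of Dcp1a to Dcp1b runs from 5.38 to 8.495 at GV and from 8.502 to 12.7 at MII, and the ratio of Pan3 to Pan2 overlaps between the stages.

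The other comparison of the design asked whether NSN and SN oocytes differ at a given stage. At the GV stage none of the 8 tested genes differed at an adjusted p under 0.05. Over all 10839 genes edgeR and DESeq2 called 0, and 190 (1.75%) had an unadjusted p under 0.05, with none of the 8 among them. The log2 differences, NSN minus SN, were between −0.56 ± 0.79 for Edc3 and −0.12 ± 0.36 for Edc4 in 7 genes, and 1.35 ± 0.69 for Dcp1b. Dcp1b had 2.52 to 5.25 CPM in GV NSN and 0.479 to 2.68 CPM in GV SN oocytes, so that the classes overlapped by GV SN replicate 1. The classes overlapped in CPM for all 8 genes, and 6.03% of all genes did not overlap.

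Much of the negative side at the GV stage came from GV NSN replicate 2. This library had the lowest CPM of the 6 GV libraries for 6 of the 8 genes, Dcp1a, Edc3, Edc4, Xrn1, Pan2 and Pan3, and the highest for Dcp1b, whereas it was the lowest for 25.2% of all genes tested. Dcp2 was not low in this library, at 67.2 CPM. Its total of 7364259 counts lay within the range of the others, and it had the fewest genes with a count of the 6 GV libraries (12685). Without it the differences were −0.04 ± 0.26 for Dcp1a, 0.23 ± 0.15 for Edc4, 0.07 ± 0.29 for Xrn1, 0.03 ± 0.25 for Pan2 and −0.03 ± 0.21 for Pan3. The rises from GV to MII without both this library and NSN-MII replicate 3 were 1.75 ± 0.18 for Dcp1a, 1.11 ± 0.20 for Xrn1, 1.33 ± 0.17 for Pan2 and 1.82 ± 0.15 for Pan3, all called.

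At the MII stage Dcp1b and Edc3 also fell below the filter, and none of the 6 genes tested was called between NSN-MII and SN-MII oocytes. Over all 10028 genes 26 (0.259%) were called and 941 (9.38%) passed 0.05 before adjustment, with none of the 6 among them. The log2 differences were small, between −0.29 ± 0.17 for Edc4 (adjusted p = 0.663) and 0.28 ± 0.21 for Dcp2 (adjusted p = 0.761). Dcp1a differed by −0.19 ± 0.17 and Pan3 by 0.25 ± 0.17. In CPM the classes overlapped for all 6 genes, and 10.2% of all genes did not overlap. In FPKM there was no overlap for Dcp2 (34.3 to 65.1 in SN-MII, 72.5 to 81.1 in NSN-MII) nor for Pan3 (69.2 to 80.8 and 82.8 to 103), and 10.2% of all genes did not overlap on that scale either.

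**Figure D4:**
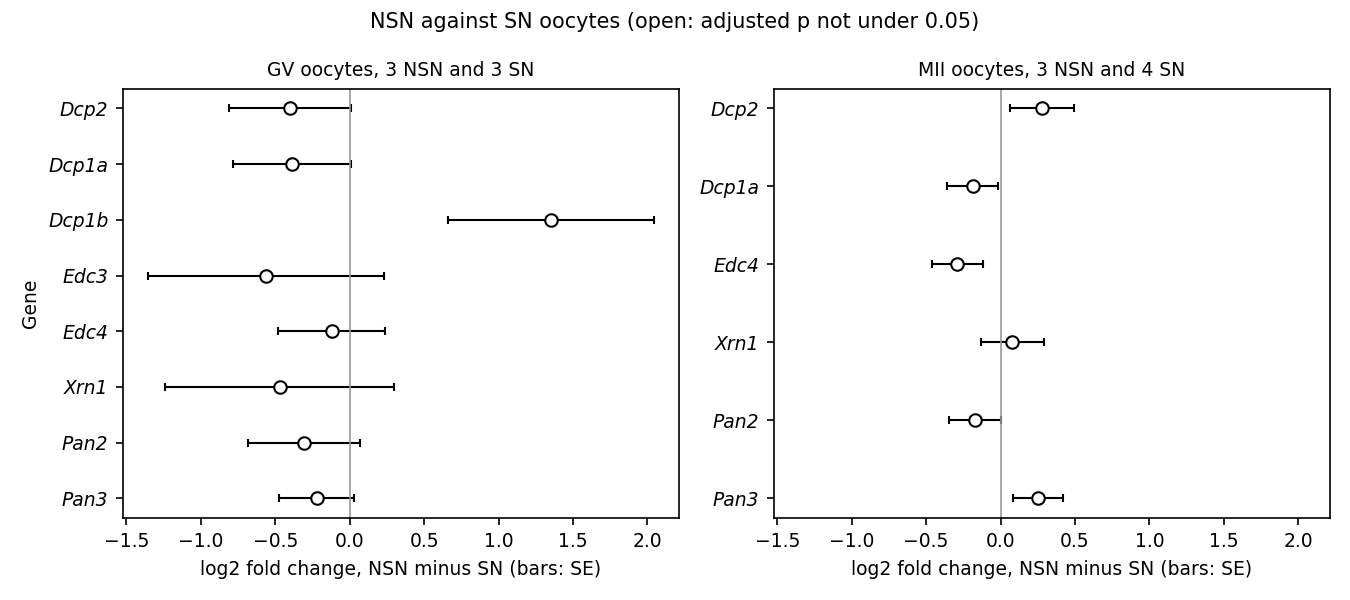
Log2 fold change between NSN and SN oocytes (horizontal axis, NSN minus SN) of the tested genes at the GV stage (left) and the MII stage (right). Bars are standard errors and open symbols mark genes that did not pass the test, which is all of them. The largest value is 1.35 for Dcp1b at GV, and all values at MII lie between −0.29 and 0.28.

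To set these genes beside the rest of the decay machinery, 75 other genes in 6 lists were followed from GV to MII, of which 73 could be tested. In all, 30 rose and 21 fell, or 69.9% called, close to the 68.6% of all genes. By direction 41.1% rose and 28.8% fell, against 31.7% and 36.9% of all genes, with a median log2 fold change of 0.22 against −0.10 over all genes. With library totals in place of TMM the median over all genes was −0.39, a shift of −0.29 that is larger than the median of the 73 genes, so their direction is read relative to all genes. None was called between NSN and SN oocytes at either stage or in the interaction. The counts of each list below stand beside the same 31.7% higher and 36.9% lower. Several lists held strong changes of both signs.

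Of the 17 decapping cofactors 5 rose and 8 fell, with a median log2 fold change of −0.04. Lsm14a, a P-body and storage granule protein gene, rose from 102 ± 17.1 to 340 ± 65.8 CPM (log2 fold change 1.74), and Patl1, which links deadenylation to decapping, rose by 1.39. Those that fell most were Dxo, a decapping exonuclease for faulty caps (−3.97), and Lsm6 (−3.16), a subunit of the ring that binds shortened mRNA tails. Lsm2, Lsm3, Lsm4, Lsm5 and Lsm7 fell too, and so did Patl2, the paralogue of Patl1, from a mean of 105 to 24.8 CPM (log2 fold change −2.04 ± 0.27), while Lsm1, the cytoplasmic subunit of that ring, had a log2 difference of 0.13 that did not pass. Of the 15 genes of CCR4-NOT and deadenylation 7 rose and 4 fell (median 0.33). The nuclease subunit genes Cnot7 and Cnot8 rose most, Cnot7 from 376 ± 85.9 to 1286 ± 284 CPM (log2 fold change 1.77) and Cnot8 by 1.39, whereas Cnot10 (−3.68) and the scaffold gene Cnot1 (−1.40) fell. Cnot6 and Cnot6l, which encode further nuclease subunits of CCR4-NOT, and Btg4, an adaptor gene known for maternal mRNA clearance, were also among the 7 that rose. The deadenylase gene Parn (−1.19) and Cnot9 (−1.16) were the others that fell.

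Of the 17 exosome and SKI genes, the 3′ to 5′ branch of decay, 16 were tested, 2 rose and 6 fell (median −0.30). Exosc5 fell from 32.8 ± 6.57 to 1.13 ± 0.878 CPM (−4.84) and Dis3l by −2.57, while the SKI complex gene Ttc37 (1.29) and Dis3l2 (0.67) rose. Of the 10 genes of nonsense-mediated decay 7 rose and 2 fell (median 0.70), led by the kinase gene Smg1 (1.89) and the helicase gene Upf1 (1.61), with Smg9 (−2.78) and Upf3a (−2.73) as those that fell. Of 13 genes for 3′UTR binding proteins 12 were tested, 7 rose and 1 fell (median 0.88). Elavl2 (1.77) and Pum2 (1.66) rose most and Hnrnpd (−0.89) fell. In the last list Xrn2 (1.27), the nuclear relative of Xrn1, and the uridyltransferase gene Tut7 (1.21) rose, and Tut4 did not pass.

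**Figure D5:**
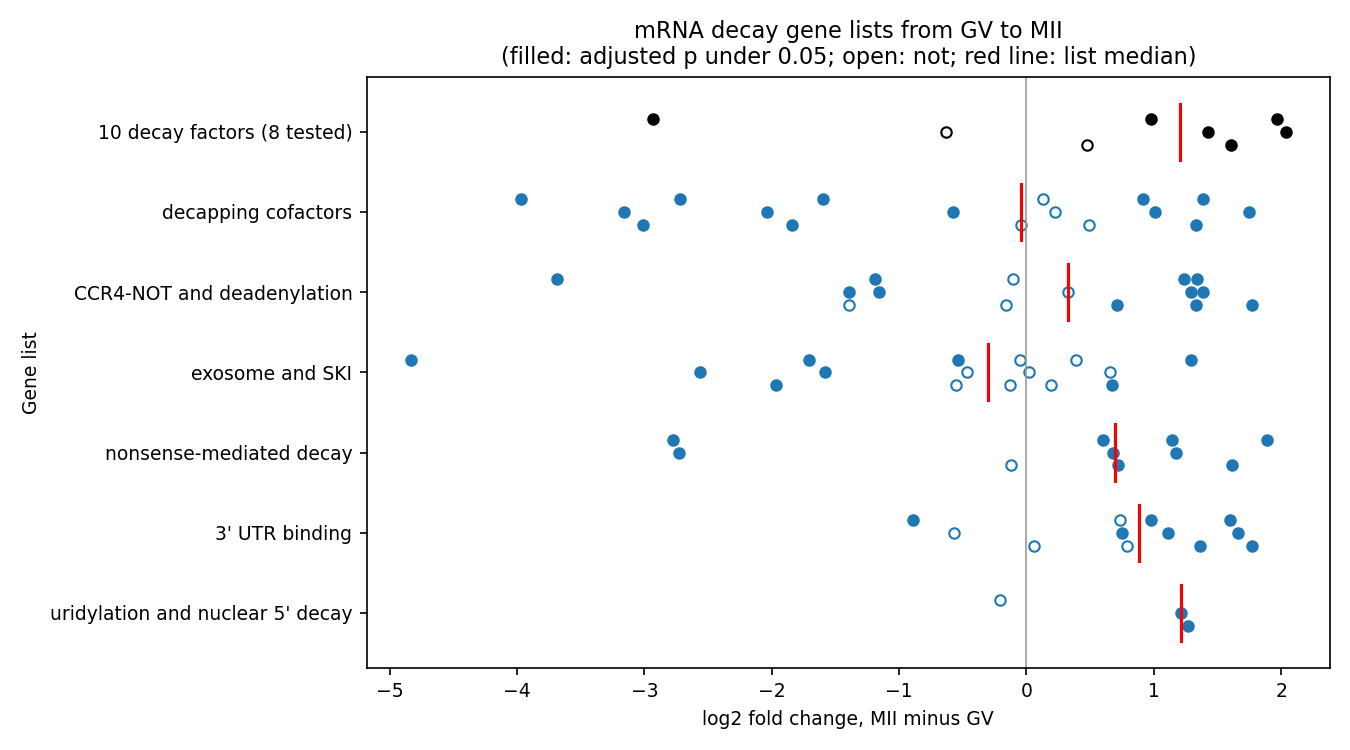
Log2 fold change from GV to MII (horizontal axis) of the 8 tested decay factors and of the tested genes of 6 other decay lists (vertical axis). Each point is a gene, filled where the adjusted p is under 0.05, and red lines are list medians, which run from −0.30 for the exosome and SKI list to 1.21 for uridylation and nuclear 5′ decay. The 8 decay factors have a median of 1.204.

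The genes whose profile over the 13 libraries was most like that of each decay factor were taken by Pearson's r in log2(FPKM + 1) among genes with a mean of at least 1 FPKM. The 13 points share the division into GV and MII libraries, so that r mostly measures how alike the change between stages was, and it is given as a description. For Dcp1a they were Wdr47 (r = 0.995) and Atf2 (0.994), for Pan2 Hif1a (0.992), and for Pan3 Usp15 (0.986) and Ubfd1 (0.985). For Xrn1 they were Atp2c1 (0.976) and Ncoa3 (0.967), for Edc4 Tbc1d1 (0.971) and Lamb1 (0.970), and for Dcp2 Dync2h1 (0.934) and Zfp708 (0.915). The genes of low level had weaker partners: Alyref and Srbd1 for Edc3 (both 0.915), CT025731.4 (0.863) and Gm20767 (0.856) for Dcp1b, Pip4p1 (0.840) and Gm38194 (0.815) for Zfp36l2, and Gm11518 (0.836) and Zfp236 (0.805) for Zfp36l1.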

How the data were processed

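Single oocytes were amplified with SMART-seq2 and sequenced on HiSeq X-10. The authors trimmed reads with Trim Galore 0.4.4, mapped them to mm10 with Bowtie2 2.3.5 and estimated expression with RSEM 1.2.28. The deposited expected counts (1 table per stage, joined by symbol) share reads that map to several genes. The deposited FPKM values (1 table) are corrected for library size and gene length. The labels name no batch, and the counting of strand is not given in the sources used here.

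Expected counts were rounded, filtered with filterByExpr, scaled by TMM and tested with edgeR 4.0.16 (R 4.3.3) by its quasi-likelihood test, Benjamini-Hochberg adjusted over all genes. The stage contrasts and the interaction used 1 model of 13 libraries, and NSN against SN used the libraries of each stage. SE denotes the standard error of the log2 fold change. The common biological coefficient of variation was 0.364 over 13 libraries, 0.352 at GV and 0.344 at MII. Intervals at low counts are exact, at 95%, and with the floor of 3 counts are scaled by TMM-adjusted library sizes and cover counting error only. Ratios were tested by exact permutation. DESeq2 1.42.0, limma 3.58.1 on FPKM, other scalings, no filter, thinned counts, a replicate block and leaving out each library were alternatives, and leaving out GV NSN replicate 2 with NSN-MII replicate 3 was added after seeing the data. The members and lists were chosen with earlier results of these data known. All 10 members are named. From each list up to 2 genes with the largest rise and 2 with the largest fall are named with values, and others named were chosen after their values were seen. A likeness result is not reported here. On simulated data with 200 changed genes, all with a mean above 10 CPM, the stage test called 180 of them and 8 of the unchanged genes, among 11375. Of the 200, NSN against SN called 136 at GV and 163 at MII, and the interaction 108. At a true log2 change of 1, the smallest simulated, 31 of 50 were called between stages. There NSN against SN called 12 at GV and 23 at MII, and the interaction 4. Genes as low as Dcp1b and Edc3 were not simulated as changed.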

Additional observations from a re-analysis of the deposited data

Results flagged for a closer look

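In the only group of 4 oocytes, SN-MII, 2 of the 10 genes had 1 library that stood apart from the other 3 by Dixon's criterion. Dcp1a had 4359 CPM in SN-MII replicate 4, against 3631 to 3720 CPM in the other SN-MII libraries. Xrn1 had 88.4 CPM in SN-MII replicate 1, against 59.9 to 61.0 CPM in the others. Chance gives about 1 such library in 20 groups, and 10 were examined. Both values lie on the side of the change from GV to MII, and both genes were called without the library concerned.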

How the results depend on the processing

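The 6 genes called between GV and MII were called under all 9 other settings that gave a value for the gene and in all 13 fits that left out a library. The number called was 6 to 7 over the other settings and 6 to 7 without single libraries. In SN oocytes it was 3 to 5 and 4 to 6, and in NSN oocytes 4 to 6 and 4 to 5. The number was 0 under every alternative for NSN against SN at GV, NSN against SN at MII and the interaction. With the replicate number as a block, the members called were 6, 4, 5, 0, 0 and 0 in the same order as without it, and the count over all genes between NSN-MII and SN-MII fell from 26 to 2. No sign of pairing by number was seen: 2 of 18 same-numbered pairs had deviations that correlated above 0.1, and 2 of 12 libraries correlated best with their own number. Such correlations between single oocytes cannot exclude a shared female or batch, and the labels do not say what the numbers mean. Over all genes NSN-MII against SN-MII gave 221 calls in DESeq2, 89 with no filter, 69 with all libraries in 1 fit, 16 with library totals and 3 to 9 in limma, and the interaction 43 in DESeq2, 6 with no filter, 1 in limma with no filter and 2 in edgeR. Library totals in place of TMM moved the median log2 fold change of all genes between stages by −0.29, and no member changed direction in that contrast.

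Signs turned only where a difference was not called. For MII against GV in SN oocytes Dcp1b went from 0.59 to −0.43 in limma on log2(FPKM + 1), with or without a filter, to −0.996 with a pseudocount of 0.1 and to between −0.48 and 1.32 without single libraries. For NSN against SN at GV the ranges without single libraries were −0.97 to 0.27 for Edc3, −0.38 to 0.23 for Edc4, −0.978 to 0.0729 for Xrn1 and −0.828 to 0.0308 for Pan2. For the interaction they were −0.12 to 0.83 for Dcp1a, −0.49 to 0.17 for Edc4 and −0.17 to 0.74 for Pan2. Xrn1 kept its sign in the interaction without single libraries, at 0.0493 to 1.18. The interaction for Edc4 was 0.0204 in limma on log2(FPKM + 1), with or without a filter, and 0.0241 with a pseudocount of 0.1. Without both GV NSN replicate 2 and NSN-MII replicate 3 it was −0.34 for Dcp1a, −0.0364 for Xrn1 and −0.39 for Pan2. The causes were not tested. Edc3 could not be fitted in limma with a filter on FPKM, as its mean was under 1 FPKM. The 4 ratios kept their direction and their side of the threshold in all alternatives.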

Other observations

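The ratio of Pan3 to Pan2 was between −0.80 and −0.64 log2 units in the 4 SN-MII oocytes and between −0.27 and −0.10 in the 3 NSN-MII oocytes, with no overlap. At the GV stage the ratio was between −1.27 and −0.64 in SN and between −0.87 and −0.21 in NSN oocytes. This comparison was chosen after the values were seen and was not tested. In counts, neither gene was called between the classes at either stage. In FPKM Pan3 alone also did not overlap between the classes at MII, and 10.2% of all genes did not overlap there. No such share was taken for ratios.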
